A study of Bos taurus with 4 samples.

Results

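The genes described here are 8 factors best known from the oocyte and the early embryo, ZAR1, NLRP5, POU5F1, TFAP2A, TFAP2B, TFAP2C, GDF9 and BMP15, measured in buffalo sperm RNA on a bovine expression array. Members were taken by gene name: every non-control probe that the scanner output assigns to one of the 8 genes was kept, which gave 18 probes on 19 spots, out of 51282 probes and 32429 gene names on the array. The samples were Percoll-selected spermatozoa of untreated Murrah breeding bulls, an Indian river buffalo breed. The submitters' organism field reads Bos taurus, which is the species of the array. The bulls were sorted by adjusted conception rate into a high-fertile and a low-fertile group. Each group had 2 arrays, and each array held 1 pool made of the RNA of 2 bulls. A pool averages its bulls, so the spread between the pools of a group is not the spread between animals. The ages of the bulls are not given in the sources used here. All 4 arrays lay on 1 slide, with both high-fertile pools in one row and both low-fertile pools in the other, so that slide position and fertility group cannot be told apart. ZAR1 and TFAP2C were picked by the study from these same arrays, so that their direction here is not independent evidence.

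These genes act around the passage from oocyte to embryo. ZAR1 is an RNA-binding protein of the oocyte that is needed for the first embryonic steps, and NLRP5 is a maternal-effect protein of the subcortical maternal complex under the oocyte surface. GDF9 and BMP15 are secreted by the oocyte as ligands of the transforming growth factor beta family and act on the surrounding granulosa cells. POU5F1 (OCT4) is the transcription factor of pluripotent cells, and the AP-2 factors TFAP2A, TFAP2B and TFAP2C bind DNA as dimers, with TFAP2C required in the trophectoderm and in germ cells. Mature spermatozoa are largely silent in transcription, and the RNA that they carry is mostly a remnant of spermatogenesis.

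What an array can say of a gene depends on where its probes lie. The probes were 60 bases long, and their start is given below as the nucleotide of the transcript from which they were designed. Genome positions are those of the array's design on the bovine build Btau_3.1. Exon and UTR annotation of that build was not used here. The following sequences are shown for the 3 genes with overlapping probes, ZAR1, NLRP5 and BMP15, with the shared bases in capitals, and for TFAP2C, whose call rests on 1 of its 2 probes.

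The ZAR1 probes lay on the plus strand of chromosome 6. A_73_107925 started at nucleotide 1078 (chr6:69755584-69755643), and A_73_P107046 started 31 bases further on (chr6:69755615-69755674). They share 29 aligned bases with 1 mismatch, T47C, counted from the 5′ end of A_73_107925.
A_73_107925: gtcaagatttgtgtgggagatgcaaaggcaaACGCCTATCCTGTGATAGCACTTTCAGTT
A_73_P107046: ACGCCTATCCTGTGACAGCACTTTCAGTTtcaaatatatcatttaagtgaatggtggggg

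The third ZAR1 probe, A_73_P087606, started 34 bases after A_73_P107046, at nucleotide 1143, and the 26 bases that both hold were identical. The fourth, A_73_P107041, started at nucleotide 1289.
shared by A_73_P107046 and A_73_P087606: TATATCATTTAAGTGAATGGTGGGGG

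The TFAP2C probes lay on the minus strand of chromosome 13, 2495 bases apart in the transcript and 9251 bases apart in the genome, so that introns separate them. A_73_P451486 started at nucleotide 226, and its 60 bases spread over 1677 bases of genome (chr13:60157315-60158991), which means that it crosses a splice junction. The forward primer of the study's own TFAP2C PCR assay, as listed in its methods, is contained in this probe. A_73_P049446 started at nucleotide 2721 (chr13:60149681-60149740), and its first 30 bases are shown.
A_73_P451486: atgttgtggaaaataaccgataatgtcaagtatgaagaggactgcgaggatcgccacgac
A_73_P049446, first 30 bases: ggaattgaactccttgcctgtaaatgttcc

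The NLRP5 probes lay on the plus strand of chromosome 18 and overlapped by 12 bases, A_73_P032581 from nucleotide 3399 (chr18:63813008-63813067) and A_73_110682 from nucleotide 3447 (chr18:63813056-63813116).
A_73_P032581: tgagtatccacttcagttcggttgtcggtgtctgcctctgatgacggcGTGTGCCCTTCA
A_73_110682: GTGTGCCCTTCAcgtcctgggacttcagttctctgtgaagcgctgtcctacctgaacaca

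The last pair of BMP15 probes overlapped by 49 identical bases. The design placed none of the 3 BMP15 probes on the genome.
A_73_110921: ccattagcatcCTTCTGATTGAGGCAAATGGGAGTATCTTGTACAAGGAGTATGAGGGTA
A_73_P037636: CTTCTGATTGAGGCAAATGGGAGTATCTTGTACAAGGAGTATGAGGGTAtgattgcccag

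Among probes of other genes, the longest run of bases in common with a member probe was 17, between ZAR1 A_73_P087606 and a probe of SLC7A5 on the opposite strand. In a search for runs of at least 14 bases, none was found for ZAR1 A_73_107925, TFAP2A A_73_110180 or the BMP15 probes.

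Before the differences between groups, the scanner's own mark shows which of these genes were seen at all. A probe was called well above background where the scanner's test of its spot against the local background said so. Of the 18 probes, 6 were well above background on all 4 arrays, 3 on 3 arrays, 2 on 1 array and 7 on none. The 6 belonged to ZAR1 (2 probes), NLRP5 (2 probes), TFAP2C and POU5F1. TFAP2A, GDF9 and BMP15 each had 1 probe that was well above background on all arrays but low-fertile pool 2. On that array, fewer probes carried the mark in all (13032, against 23206 to 25640 on the other arrays), and the lowest signal to carry it was 14.5, against 7.41 to 8.68. The only TFAP2B probe, A_73_P031711 on chromosome 23, was well above background on none. The 7 dark probes had processed signals between 3.82 and 15.1, a range in which values have no order, and their differences between groups (0.10 to 0.93 on the log2 scale) were not tested.

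A probe was tested for a difference between groups where both arrays of 1 group or of both groups had it well above background. This held for 9 of the 18 member probes, from 7 of the 8 genes, TFAP2B being the exception; 21028 of all 51282 probes passed the same filter. Differences are given as low-fertile minus high-fertile on the log2 scale, after each array's 75th percentile was subtracted, with the standard error (SE) and the adjusted p of the limma fit over all tested probes. A feature was called where the adjusted p was under 0.05. Of the 9 member probes, 3 were called lower in the low-fertile pools, namely both bright ZAR1 probes and the bright TFAP2C probe, against 17.6% of all tested probes called lower. None was called higher, against 9.23% of all tested probes; at an unadjusted p under 0.05, 4 member probes were lower and 1 was higher by limma, against 24.0% and 17.6% of all tested probes, and 3 were lower and 1 was higher by the methods' t-test, against 16.9% and 12.1%. The median difference of the 9 was -0.23, and that of all tested probes was -0.0046. Over genes, each by its brightest probe, 2 of the 7 with a tested probe were lower, against 16.4% of all tested genes.

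**Figure D1:**
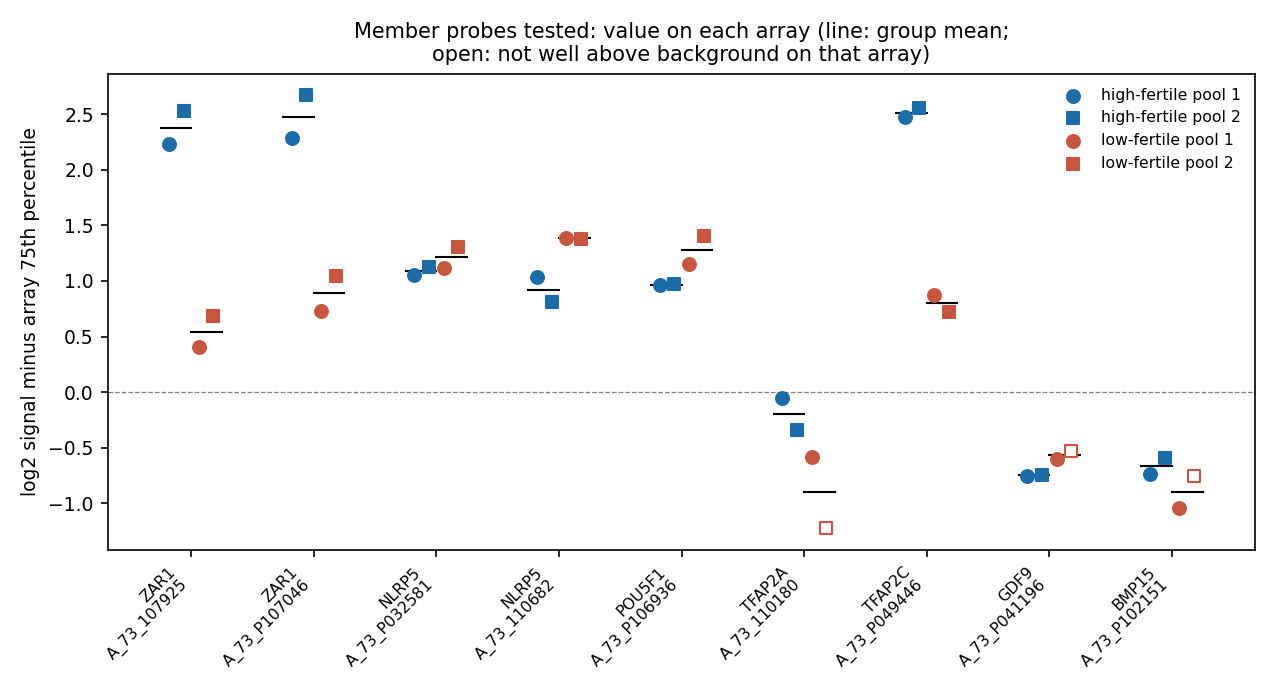
Normalized log2 signal (log2 processed signal minus the array's 75th percentile) of the 9 tested member probes on each of the 4 arrays, with high-fertile pools in blue, low-fertile pools in red and a line at each group's mean. The ZAR1 and TFAP2C points of the high-fertile pools lie between 2.23 and 2.67 and those of the low-fertile pools between 0.40 and 1.05, whereas the other genes' groups lie closer together; open points were not well above background.

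ZAR1 was lower in the low-fertile pools by both bright probes, 3.56-fold and 3.01-fold. For A_73_107925, the processed signals were 172 and 214 in the high-fertile pools, against 48.9 and 52.5 in the low-fertile pools. The normalized log2 values were 2.38 ± 0.21 (SD, n = 2) and 0.54 ± 0.20 (SD, n = 2), a difference of -1.83 (SE 0.19, adjusted p = 0.0034), or a 3.56-fold higher level in the high-fertile group. This probe was printed at 2 spots of each array: the spots read 184 and 161 in the first high-fertile pool, 196 and 233 in the second, then 56.3 and 42.5 in the first low-fertile pool, with 47.5 and 58.0 in the second. All high-fertile spots were thus above all low-fertile spots.

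The overlapping probe A_73_P107046 read 179 and 236 in the high-fertile pools, against 61.3 and 67.5 in the low-fertile pools. Its difference was -1.59 (SE 0.20, adjusted p = 0.0056), a 3.01-fold higher level in the high-fertile group, and its groups did not overlap either. Because these probes share bases and measure the same RNA, they are not separate evidence. Among all tested probes, 3.74% had a more negative difference than A_73_107925 and 5.27% a more negative one than A_73_P107046. By the methods' t-test the unadjusted p was 0.0123 for A_73_107925 and 0.0239 for A_73_P107046, under the unadjusted threshold of 0.05, and the adjusted p was 0.108 and 0.131. With no filter on dim probes the limma fit gave adjusted p-values of 0.115 and 0.124. After adjustment, 0 probes of the whole array were called by the methods' t-test or without the filter, so that these losses are not particular to ZAR1. With normexp background correction the differences were -1.07 and -1.04.

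The remaining ZAR1 probes gave no reading of the gene. A_73_P087606 read 14.8 and 3.90 in the high-fertile pools, against 9.50 and 6.22 in the low-fertile pools. A_73_P107041 read 4.93 and 8.46 in the high-fertile pools, against 7.67 and 6.63 in the low-fertile pools. Neither was well above background on any array, although A_73_P087606 has 26 of its 60 bases in common with A_73_P107046. The ZAR1 result therefore rests on the stretch from nucleotide 1078 to 1168.

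**Figure D2:**
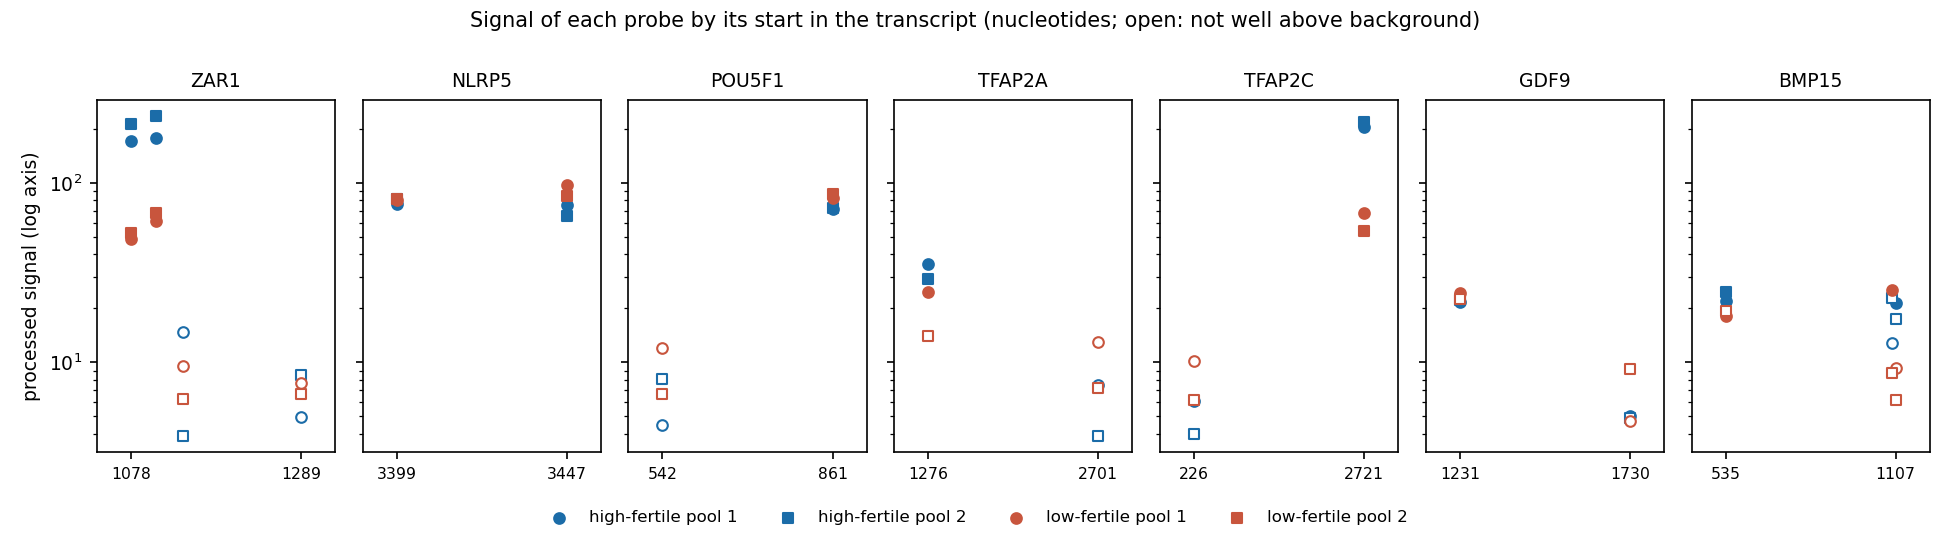
Processed signal (log axis) of each probe of the 7 genes with more than 1 probe, by the probe's start in the transcript in nucleotides; filled points were well above background on that array and open points were not. Within ZAR1 the probes starting at 1078 and 1109 are filled on all arrays and those at 1143 and 1289 on none, and within TFAP2C the probe at 2721 is filled and that at 226 is open throughout.

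NLRP5, the other maternal-effect gene of the set, did not pass the test by either probe. A_73_P032581 read 76.2 and 80.8 in the high-fertile pools, against 80.4 and 80.9 in the low-fertile pools. Its difference was 0.13 (SE 0.15, adjusted p = 0.57), with a 95% interval from -0.25 to 0.50, and its groups overlapped. A_73_110682 read 75.1 and 65.1 in the high-fertile pools against 96.8 and 85.0 in the low-fertile pools. The groups of this probe did not overlap, but its difference of 0.46 (SE 0.15, adjusted p = 0.079) stayed above the threshold, with an interval from 0.08 to 0.85. The call depended on the fit, since its adjusted p was 0.044 when the variance prior followed the intensity and 0.039 when only probes well above background on all arrays were tested.

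POU5F1 was read by A_73_P106936, which starts at nucleotide 861 on chromosome 23 (chr23:27909982-27910041). Its signals were 71.5 and 72.6 in the high-fertile pools, against 82.5 and 86.5 in the low-fertile pools. The groups did not overlap, but the difference of 0.31 (SE 0.16, adjusted p = 0.19) did not pass, with an interval from -0.08 to 0.71. The other POU5F1 probe, A_73_P102696, which starts at nucleotide 542 and lies 752 bases away in the genome, read 4.49 to 11.9 and was well above background on no array.

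The AP-2 genes differed in what could be read. TFAP2C by A_73_P049446 had signals of 204 and 218 in the high-fertile pools, against 67.7 and 54.0 in the low-fertile pools. The normalized log2 values were 2.51 ± 0.05 (SD, n = 2) and 0.80 ± 0.10 (SD, n = 2). The difference of -1.72 (SE 0.15, adjusted p = 0.0026) corresponds to a 3.29-fold higher level in the high-fertile group, and 4.41% of all tested probes had a more negative one. The TFAP2C probe near the start of the transcript, A_73_P451486, read 6.06 and 3.99 in the high-fertile pools, against 10.2 and 6.20 in the low-fertile pools, and was well above background on no array, so that the call rests on 1 probe at the far end of the transcript. With the median over both probes the difference was -0.47 (adjusted p = 0.17). By the bright probe alone the difference was -0.90 with normexp background correction. By the methods' t-test its unadjusted p was 0.0023 and its adjusted p 0.081, and with no filter on dim probes the adjusted p was 0.115, in fits where 0 probes of the whole array were called after adjustment.

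TFAP2A by A_73_110180, from nucleotide 1276 on chromosome 23 (chr23:46400501-46400560), was lower in both low-fertile pools without passing the test. It read 35.4 and 29.3 in the high-fertile pools against 24.7 in the first low-fertile pool, and 13.99 in the second, where it was not well above background. The difference was -0.71 (SE 0.25, adjusted p = 0.093), with an interval from -1.34 to -0.07. Single arrays decided this value: without low-fertile pool 1 it was -1.03, resting on the unmarked reading of pool 2 alone, and without low-fertile pool 2 it was -0.39. The median over both TFAP2A probes turned the direction (0.11, adjusted p = 0.83), and with normexp the bright probe passed at -0.27 (adjusted p = 0.025). The other TFAP2A probe, A_73_P034716, read 3.87 to 12.97 and the TFAP2B probe read 3.82 to 15.1, all below the mark. Whether TFAP2A and TFAP2C differed from each other in their change was not tested.

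Of the oocyte ligands, GDF9 was read by A_73_P041196, from nucleotide 1231 on the minus strand of chromosome 7 (chr7:44091314-44091373). Its signals were 21.8 and 22.2 in the high-fertile pools, against 24.5 and 22.7 in the low-fertile pools, the last not well above background. The difference was 0.18 (SE 0.14, adjusted p = 0.37), with an interval from -0.17 to 0.54. The second GDF9 probe, A_73_105743, which starts 499 bases downstream, read 4.74 to 9.17 and was dark on all arrays.

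BMP15 by A_73_P102151, from nucleotide 535, read 22.0 and 24.6 in the high-fertile pools, against 18.03 and 19.4 in the low-fertile pools, the last not well above background. The groups did not overlap, but the difference of -0.23 (SE 0.17, adjusted p = 0.35) did not pass, with an interval from -0.65 to 0.19. The remaining BMP15 probes were each well above background on 1 array, and not the same array, although 49 of their 60 bases are shared. A_73_110921 read 12.9 and 23.0 in the high-fertile pools, against 25.3 and 8.69 in the low-fertile pools, where only the 25.3 was above the mark. A_73_P037636 read 21.3 and 17.4 in the high-fertile pools, against 9.29 and 6.16 in the low-fertile pools, where only the 21.3 was above the mark. With low-fertile pool 2 raised to the lowest marked signal of its array (14.5), A_73_P037636 was 1.56-fold higher in the high-fertile group. The other values were taken as read, with the mark on 1 of the 2 high-fertile arrays, so that 1.56 is not a lower bound. The difference was not tested.

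**Figure D3:**
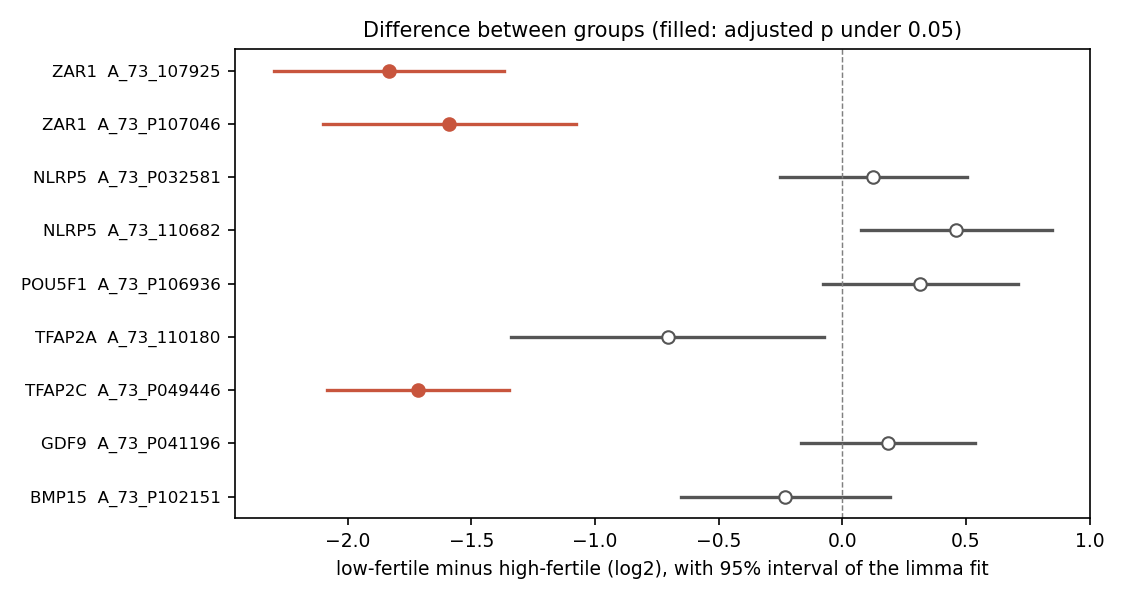
Difference in log2 signal between groups, low-fertile minus high-fertile, for the 9 tested member probes, with the 95% interval of the limma fit; filled points had an adjusted p under 0.05. The ZAR1 and TFAP2C points lie between -1.83 and -1.59, and the other 6 lie between -0.71 and 0.46.

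Fewer cells that carry a transcript and less of it per cell cannot be told apart in pooled RNA. Cell type markers were therefore read on the same arrays, each by its brightest probe; their calls stand against 9.57% of all tested genes called higher. Of 15 sperm markers, 3 were well above background on all arrays, among them protamine 1 (PRM1), which packs sperm DNA, and the outer dense fibre gene ODF1, whereas 5 were on none. The sperm markers' summed signal was 726 in high-fertile pool 1, 600 in pool 2, and 594 and 544 in the low-fertile ones. Of the 726, 179.9 came from protamine 2 (PRM2), which was well above background on that array only and was not tested; without it, a choice made after its value was seen, the sums were 546 and 586 in the high-fertile and 579.9 and 534 in the low-fertile pools. Of 6 tested sperm markers, PRM1 was higher in the low-fertile pools (0.67, SE 0.14, adjusted p = 0.023), and its other tested probe was not called. The other 5 did not pass by their brightest probe, with differences from -0.18 to 0.51, although the other tested probe of GAPDHS was called lower. Of 10 leukocyte markers, 5 were well above background on all arrays and 2, CD3E and S100A9, on none. Their summed signal was 21417 and 20440 in high-fertile pools 1 and 2, against 28579 and 27842 in the low-fertile ones. Most of it came from lysozyme (LYZ) and from the leukocyte surface phosphatase PTPRC. Of 8 tested leukocyte markers, PTPRC was higher in the low-fertile pools (0.78, SE 0.15, adjusted p = 0.016), and its other tested probe was not called. The other 7 did not pass by their brightest probe, with differences from -0.29 to 0.42. Of the 2 other tested probes of CD14, 1 was called higher and 1 was called lower. Of 6 epithelial markers, 4 were well above background on all arrays and none of these 4 passed. Of 5 tested testis somatic markers, the steroidogenic gene STAR was higher in the low-fertile pools (0.79, adjusted p = 0.021), and the other 4 did not pass, with differences from -0.25 to 0.26. Of 2 tested red cell markers, the haemoglobin gene HBB was higher (1.24, adjusted p = 0.012), with high-fertile pool 1 not well above background. HBB thus entered the test only through the low-fertile group, where it is high, and its p lends no support. HBA did not pass (-0.17, adjusted p = 0.71). The part of other cells in the ZAR1 and TFAP2C values was not tested.

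The wider setting of the 8 genes was read from 6 lists of related genes, 95 names in all, of which 78 were on the array and 47 were tested by their brightest probe. Of these, 8 were lower in the low-fertile pools (17.0%, against 16.4% of all tested genes) and 2 were higher (4.26%, against 9.57%), and 37 did not pass. Of the 8, KLF4, NR5A2, SMAD2 and WEE2 entered the test only through the high-fertile arrays, where they were bright, and could hardly be other than lower. KLF4, NR5A2 and SMAD2 carried the mark only in the high-fertile group, as did 30.4% of all genes called lower. WEE2 carried it on low-fertile pool 1 but not on pool 2. For all genes called lower, the share that entered in this wider way was not counted. Among the 30 list genes well above background on all arrays, a count added after the values were seen, 4 were lower (13.3%, against 9.36% of such genes on the whole array) and 2 were higher (6.67%, against 13.2%). The median difference of the 47 was 0.028, and that of all tested genes was 0.014.

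Among maternal-effect genes, 8 of 13 on the array were tested, 2 were lower and 1 was higher. CPEB1, which controls the poly(A) tails of stored oocyte mRNAs, read 388 and 387 in the high-fertile and 185 and 190 in the low-fertile pools (-0.96, SE 0.15, adjusted p = 0.0099). WEE2, the oocyte kinase that holds meiosis arrested, read 59.4 and 54.9 against 18.5 and 11.2, with low-fertile pool 2 not well above background. Its difference of -1.91 (SE 0.22, adjusted p = 0.0042) rests in part on that pool, and without it was -1.63. WEE2 entered the test only through the high-fertile group, where it is high, so that its p lends no support. PADI6, which like NLRP5 belongs to the subcortical maternal complex, read 28.1 and 33.0 against 49.4 and 40.3 (0.64, SE 0.16, adjusted p = 0.035). The groups of all 3 were separate on these arrays, but probes of a gene did not always go together. For CPEB1, 1 of the other 2 tested probes was also lower, and neither the other tested WEE2 probe nor the other tested PADI6 probe was called. MOS was not called by its brightest probe (0.04), but 1 of its other 2 tested probes was called lower.

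Among oocyte transcription factors and zona pellucida proteins, 4 of 13 on the array were tested and 1 was lower. This was ZP4, a protein of the egg coat, which read 131 and 118 in the high-fertile and 45.2 and 44.7 in the low-fertile pools (-1.38, SE 0.16, adjusted p = 0.0040). Its single probe was well above background on all arrays. SOHLH2 was not called by its brightest probe (0.25), but its other tested probe was called lower.

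Among the receptors and SMADs through which GDF9 and BMP15 act, together with secreted inhibitors, 8 of 16 were tested, and 3 were lower and none higher in the limma fit (SMAD6, an inhibitory SMAD, was higher at an unadjusted p of 0.038, with 0.47 and an adjusted p of 0.10). The activin-binding protein FST read 95.01 and 98.7 in the high-fertile and 46.3 and 39.3 in the low-fertile pools (-1.10, SE 0.14, adjusted p = 0.0055). GREM1, a secreted inhibitor of bone morphogenetic proteins, read 77.6 in both high-fertile pools against 47.7 and 49.5 (-0.59, SE 0.16, adjusted p = 0.043). SMAD2, the signal transducer of the GDF9 branch, read 29.3 and 37.6 against 19.6 and 15.2, neither of the latter well above background. By these values it was 1.81-fold higher in the high-fertile group (-0.86, interval from -1.31 to -0.40, adjusted p = 0.023), which is not a lower bound. SMAD2 too entered the test only through the group where it is high, so that its p lends no support. Of the receptors, only BMPR1B was tested, at 0.20 (adjusted p = 0.34), and BMPR2, BMPR1A and TGFBR1 were well above background on no array.

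Among pluripotency factors, the group around POU5F1, 14 of 16 on the array were tested, 2 were lower and 1 was higher. KLF4 read 25.96 and 32.6 in the high-fertile and 9.49 and 6.44 in the low-fertile pools (adjusted p = 0.0040). With low-fertile pool 2 raised to the lowest marked signal of its array (14.5), KLF4 was 2.34-fold higher in the high-fertile group. The nuclear receptor NR5A2 read 38.1 and 27.9 against 10.9 and 6.02 (adjusted p = 0.0079). With low-fertile pool 2 raised in the same way, NR5A2 was 2.44-fold higher in the high-fertile group. For both, neither low-fertile pool was well above background, so that the filter admitted them only through the group where they are high and their p lends no support. LIN28A, an RNA-binding protein that blocks let-7 maturation, read 50.3 and 44.5 against 73.9 and 69.8 (0.69, SE 0.15, adjusted p = 0.027).

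Of the trophectoderm factors, 9 of 13 were tested and none passed the adjusted threshold of the limma fit in either direction by its brightest probe. The other tested probe of HAND1 and that of DLX3 were each called higher, against -0.06 and -0.025 by the brightest probes. By the brightest probes at an unadjusted p under 0.05, 1 was higher by limma (the caudal homeobox gene CDX2, 0.47, adjusted p = 0.099). At that threshold 0 were lower, and 0 passed the methods' t-test. Of the other AP-2 genes and AP-2 cofactors, 4 of 7 were tested and none passed in either direction by the limma fit or by the methods' t-test. At an unadjusted p under 0.05, 0 were lower and 1 was higher by limma, and 0 by the methods' t-test. That gene, named after its value was seen, was the histone acetyltransferase gene CREBBP. It read 17.6 and 17.04 in the high-fertile pools, neither well above background, with 29.4 and 58.8 in the low-fertile pools. By these values it was 2.55-fold higher in the low-fertile group (log2 interval from 0.39 to 2.31, adjusted p = 0.052), which is not a lower bound. CREBBP entered the test through the low-fertile group alone, where it is high, so that its p lends no support. With each gene taken as the median of its probes, the differences of KLF4 (-0.16), SMAD2 (-0.17), GREM1 (-0.39), WEE2 (-0.53), CPEB1 (-0.90, adjusted p = 0.051) and PADI6 (0.52, adjusted p = 0.099) did not pass. The calls of PADI6, GREM1 and LIN28A were lost whichever of the 4 arrays was left out. That of CPEB1 was lost without either high-fertile array (adjusted p = 0.053 each), and that of SMAD2 without high-fertile pool 2 (0.11) or low-fertile pool 2 (0.079).

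**Figure D4:**
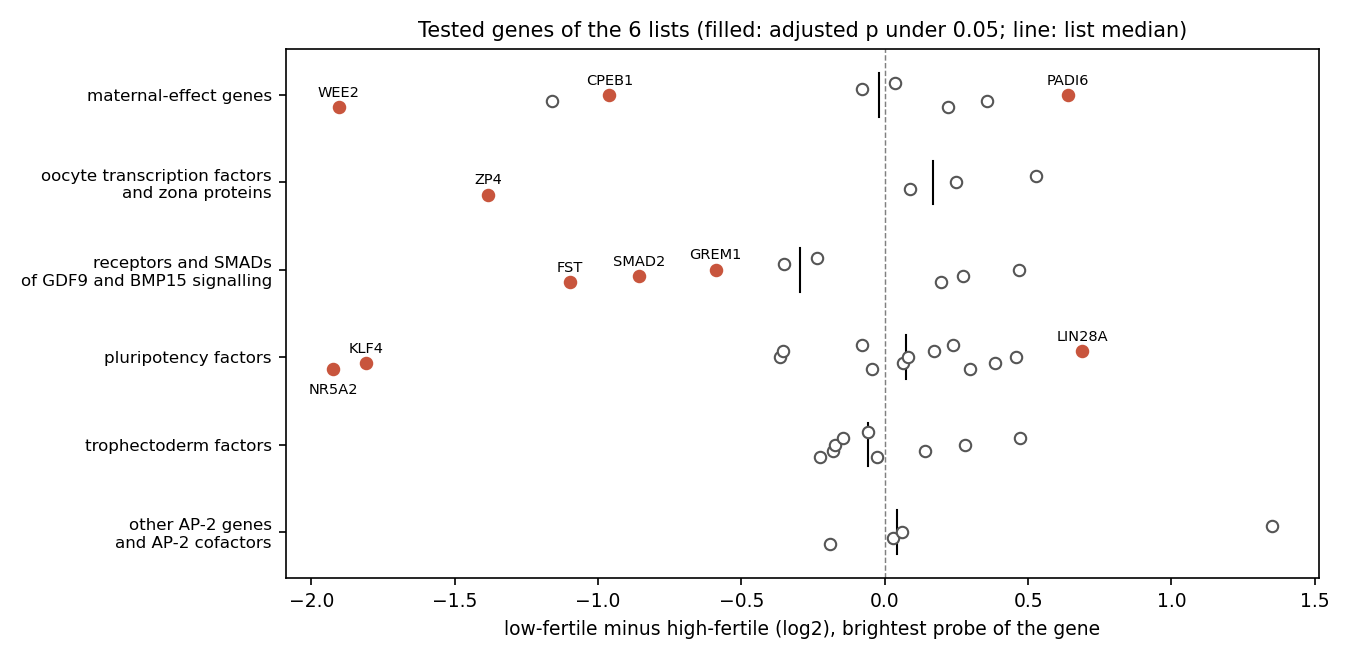
Difference in log2 signal between groups, low-fertile minus high-fertile, for the 47 tested genes of the 6 lists, each by its brightest probe; filled, named points had an adjusted p under 0.05 and the black line is the median of the list. The 8 called lower spread over 4 lists, and the trophectoderm and AP-2 lists have no filled point. The 4 of them marked on all arrays lie between -1.38 for ZP4 and -0.59 for GREM1. KLF4, NR5A2 and SMAD2 passed the background mark only on the high-fertile arrays, and WEE2 did not pass it on low-fertile pool 2, so that the order of their points has no meaning.

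The genes whose 4 values were most like those of ZAR1 and TFAP2C were found by the root mean square (RMS) difference of the centred log2 values over the 4 arrays, among tested probes of other genes that have a name. For ZAR1 A_73_P107046 this gave T2R10C, MRPL49 and ATP6V1C2, but their probes were well above background on neither low-fertile array, where values have no order, so that no RMS is given for them. The same held for DCT, the second for TFAP2C A_73_P049446. Among probes that passed the background mark on each of the 4 arrays, a restriction set after the values were seen, those nearest to ZAR1 were of the nascent-chain protein gene NACA (RMS 0.068), the receptor gene FLT1 (0.070) and the pterin enzyme gene PTS (0.071), and 9 of 6554 lay within 0.1. Those nearest to TFAP2C were of the proton pump subunit gene ATP6V1E1 (0.012), the zinc finger gene ZNF367 (0.026) and the ribosomal protein gene RPL35A (0.035), and 26 of 6555 lay within 0.1. ZAR1 and TFAP2C lay at an RMS of 0.21 from each other. A probe with little spread and a group difference of like size has a small RMS by construction.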

How the data were processed

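Sperm RNA of 2 high-fertile and 2 low-fertile pools was hybridised, labelled with Cy3, to 1-colour Agilent bovine arrays. The authors deposited scanner output of Agilent Feature Extraction 11.5.1.1 (grid build Btau_3.1), with an intensity per spot, background-subtracted and detrended within the array, and log2 values shifted by each array's 75th percentile. The latter table was used only as an alternative. From the intensities, outlier spots were dropped, log2 values of a probe's spots averaged and each array's 75th percentile subtracted. The groups were compared with limma 3.58.1 (R 4.3.3), Benjamini-Hochberg adjusted over the 21028 probes that both arrays of 1 group or of both groups had well above background. An exact permutation test of 2 against 2 cannot go below a two-sided p of 0.333, so none was run. The script was tested on simulated data. The pool numbers did not pair the samples (r = 0.0054 between same-numbered pools' deviations over 21023 probes).

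The members and lists were chosen with earlier results of these data known. All 18 member probes are reported; of each list, every called gene is named where a list had 5 or fewer. Old symbols were updated from a RefSeq table, in which all 8 members matched. Precision is limited by the 4 arrays. p-values measure only the spread between pools. No member spot was an outlier, saturated or on a bright patch. Protein and promoter sequences were not used here, and 1 gene of the lists is not reported here and is in none of the list counts. Alternatives covered normalization, background correction, filters, the test, the values and left-out arrays.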

Additional observations from a re-analysis of the deposited data

How the results depend on the processing

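Each result was recomputed under up to 17 alternatives. The slide could not be fitted as a block because all 4 arrays shared 1 slide. The differences of ZAR1 and TFAP2C were negative under all alternatives run, from -2.20 to -1.07 for ZAR1 A_73_107925, from -1.96 to -1.04 for ZAR1 A_73_P107046 and from -2.09 to -0.47 for TFAP2C. Of the 148 values of member probes under an alternative, 130 kept their direction and their side of the threshold. With no filter on dim probes, and likewise with the methods' t-test after adjustment, 0 member probes and 0 member genes were lower and 0 list genes were lower or higher, although 3 member probes were lower at an unadjusted p under 0.05 in either fit, and 1, GDF9 A_73_P041196, was higher by the t-test. In both fits 0 probes of the whole array were called in either direction (3691 lower and 1940 higher in the main setting), so that these counts of 0 say nothing about the members or lists in particular. The smallest adjusted p of a member probe in these fits was 0.115 without the filter and 0.081 with the t-test. Taking each gene as the median of its probes left 1 member gene and 3 list genes lower, and reversed TFAP2A (0.11). Testing only probes well above background on all arrays gave 1 member probe and 1 member gene higher, NLRP5, and 4 list genes lower, and the intensity trend also gave 1 of each member count higher. Spike-in normalization moved the median of all tested probes to -0.38 and the share of lower calls from 65.5% to 92.1%; it gave 15 list genes lower and 0 higher and turned POU5F1 to -0.056, NLRP5 A_73_P032581 to -0.25 and GDF9 to -0.19, and BMP15 passed at -0.60. Relative to that median these were 0.32, 0.13, 0.19 and -0.23. Background correction by normexp turned NLRP5 A_73_P032581 to -0.053, and TFAP2A passed at -0.27. Leaving out 1 array at a time gave 3 to 4 member probes and 2 to 3 member genes lower and none higher, 5 to 8 list genes lower and 0 to 1 higher, with 5 lower without high-fertile pool 2 and 0 higher without either high-fertile pool. With the replicate block, which the pool numbers do not justify, 4 member probes and 7 list genes were lower, TFAP2A passing with an adjusted p of 0.041. The causes of these changes were not tested.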
